A study of Rattus norvegicus with 5 samples.

Results

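The DTMS library was set against the MI library, 2 of the 5 libraries of the series, to ask what differed in the infarcted rat heart when the hydrogel suture was applied without a drug. Members were taken by their treatment labels, MI without treatment and MI with DTMS treatment, and the comparison took in the 12930 of 20646 listed genes whose FPKM was 1 or more in one of them. FPKM is the number of sequenced fragments of a gene relative to its length and to the library total. All rats were male SD rats, 7 to 8 weeks old in the labels. The MI rats had myocardial infarction by ligation of the left anterior descending coronary artery and no further intervention, and the DTMS rats had the same infarction with DTMS stitched over the infarcted area. DTMS, the diagnosis-treatment-monitoring suture, is a microchanneled polyvinyl alcohol hydrogel thread made conductive with polypyrrole. Normal rats had no infarction, SNAP rats were infarcted and had the nitric oxide donor SNAP injected into the infarcted area, and S-DTMS rats (spelled S-DTNS in the sample labels) were infarcted and received SNAP through the suture and its reservoir. The labels place sampling at 1 month, whereas the methods of the study place it a week after therapy, and the tissue was heart in the labels and left ventricular wall in the methods. The methods describe saline given through the suture's reservoir to a group of another name, and whether this was the DTMS group is not stated. The same passage also names the SNAP group among those sutured, whereas the labels give it SNAP only.

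Each group had 1 library, so the differences below lack replicates and were not tested. A legend of the study describes its expression data as biologically independent triplicates, and whether their RNA was pooled into the library listed here is not stated. Differences between rats, sampling sites and treatments cannot be told apart. Because bulk tissue was measured, fewer cells of a type and less RNA per cell cannot be told apart either.

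After a coronary artery is closed, cardiomyocytes in its territory die, leukocytes clear the debris, and fibroblasts replace the lost muscle with a collagen scar. The surviving muscle takes on a higher load and switches on stretch-responsive genes. A suture left in this tissue is also a foreign body, to which macrophages and fibroblasts are known to respond. Genes were listed under Ensembl identifiers that the tables used here did not pair with names, so the genes of these processes were not analysed here. Genes are therefore described by their level, their length and their behaviour in the 5 libraries, and identifiers are given for 2 rises and 2 falls. The labelled tissue was not checked against marker genes for the same reason.

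The totals recovered from the FPKM values were 16785936 fragments for MI and 16731024 for DTMS, and at most 17379225 in the other libraries. Nearly equal depth meant that a gene with the same FPKM had nearly the same number of fragments in both. Of the listed genes, 2917 were at 0 in MI and 3207 in DTMS. The median-of-ratios factor, which is the median ratio of a library to the geometric mean of the 5 libraries, was 1.00 for MI and 0.930 for DTMS. Values as deposited in DTMS were thus slightly low for the typical gene, and counts are given on both scales.

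Most genes differed little between DTMS and MI. The difference of log2(FPKM + 1), DTMS minus MI, is compressed at low values. It had a median of -0.06 and quartiles at -0.27 and 0.13. A difference within 0.5 in either direction was found for 10678 genes, or 82.6%. A gene was counted as changed at a difference of at least 1 in either direction, without any test. DTMS was higher than MI at 201 genes (1.55% of those compared) and lower at 439 (3.40%). With median-of-ratios scaling, which brought the median difference to 0.03, DTMS was higher at 238 genes (1.84%) and lower at 387 (2.99%). All 201 higher genes were among the 238, and all 387 were among the 439. At a difference of 2 or more, 24 genes were higher and 39 lower, and at 3 or more, 3 were higher and 7 lower. The lower genes therefore outnumbered the higher ones on both scales.

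**Figure D1:**
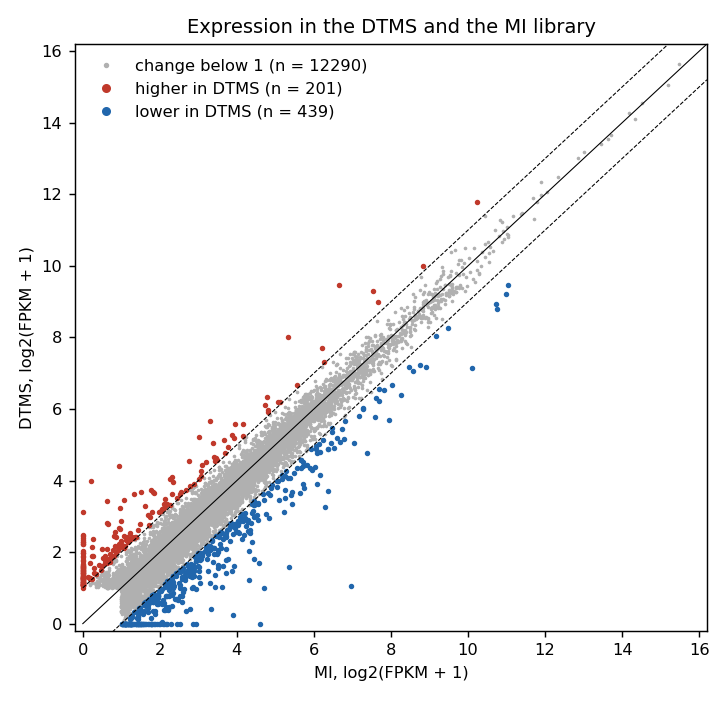
Each point is a gene, with log2(FPKM + 1) in MI on the x axis and in DTMS on the y axis; the solid line marks equal values and the dashed lines a difference of 1. The 201 higher and 439 lower genes lie outside the dashed lines, mostly at low levels, and 22 of the lower against 8 of the higher genes have a mean FPKM of 100 or more.

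Together the 439 lower genes held 5.43% of all fragments in MI and 1.59% in DTMS. They held 2.27% in Normal, 2.28% in SNAP and 1.93% in S-DTMS. In MI and in DTMS, 22.5% and 22.3% of these fragments came from a single gene of 6028 nt. The 201 higher genes held 0.962% of the fragments in MI and 2.82% in DTMS. Their share was 2.05% in Normal, 2.47% in SNAP and 3.25% in S-DTMS. A gene of 5923 nt held 73.9% of these fragments in MI and 74.2% in DTMS, and without it the other 200 genes held 0.251% in MI, 0.727% in DTMS, 0.728% in Normal, 0.740% in SNAP and 1.29% in S-DTMS. The genes were chosen by MI and DTMS, so the order of these libraries is no result, and the place of MI at the end of the 5 libraries is largely set by the choice too. The median FPKM of the lower set was 6.15 in MI, 1.59 in DTMS, 3.93 in Normal, 2.28 in SNAP and 3.03 in S-DTMS. For the higher set the median FPKM was 0.632 in MI, 3.70 in DTMS, 2.09 in Normal, 1.77 in SNAP and 1.96 in S-DTMS. At the median, Normal, SNAP and S-DTMS lay between MI and DTMS in both sets, which the choice of the genes favours.

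The genes with the largest differences were taken among those with an FPKM of at least 10 in MI or DTMS that were changed on both scales. Of these, 55 were higher and 145 lower in DTMS. Among all 12930 genes compared, 201 were higher and 387 lower on both scales. The deepest fall was that of ENSRNOG00000022490, whose FPKM was 48.1 in Normal, 123 in MI, 43.4 in SNAP, 1.09 in DTMS and 85.2 in S-DTMS. DTMS alone was low, with 8 fragments against 330 or more in every other library. The log2 difference to MI was -5.89, and the ratio of DTMS to MI was 0.00887 with a 95% interval from 0.00382 to 0.0176. Such intervals are exact, were taken from the fragments and cover counting error only. ENSRNOG00000042018 had 193 fragments in MI, an FPKM of 23.4, and was listed at 0 in Normal, SNAP, DTMS and S-DTMS. Against a floor of 3 fragments, with the fragments of MI taken as counted, it was at least 64.1-fold lower in DTMS, and the exact 95% interval of the ratio reached down to 51.7-fold. This gene set MI apart from all other libraries, not DTMS.

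The highest rise was that of ENSRNOG00000031706, whose FPKM was 0.235 in Normal, 0.160 in MI, 0.539 in SNAP, 14.9 in DTMS and 8.64 in S-DTMS. Both libraries labelled with the suture were high, with 186 fragments in DTMS and 110 in S-DTMS, and the 3 libraries whose labels name no suture held 2 to 7 fragments. The log2 difference between DTMS and MI was 3.78, and the ratio was 93.3 with an interval from 25.5 to 776 that reflects the 2 fragments in MI. ENSRNOG00000002475 had an FPKM of 23.7 in Normal, 0.918 in MI, 16.7 in SNAP, 20.04 in DTMS and 2.37 in S-DTMS. MI and S-DTMS were low and the other 3 libraries high. Its log2 difference between DTMS and MI was 3.46, with a ratio of 21.8 and an interval from 10.8 to 51.3.

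The 12 highest rises spanned log2 differences from 1.80 to 3.78, with 20 to 18700 fragments per gene in MI and DTMS together. The 12 deepest falls spanned -5.89 to -2.60, with 193 to 120157 fragments. For each of these 24 genes, the 95% Poisson intervals of the fragments in MI and DTMS did not overlap, compared with 36.2% of all genes compared, and this follows in part from how they were chosen. DTMS lay nearer to Normal than MI did at 7 of the 12 rises and 7 of the 12 falls on either scale, compared with 43.7% of all genes as deposited and 46.8% on the scaled values. MI was at least 1 above Normal on the log2 scale at 8 of the falls, compared with 2.36% of all genes, and at least 1 below it at 7 of the rises, compared with 3.95%. Since these genes were picked for their values in MI and DTMS, these counts are a description only. S-DTMS and SNAP differ by the route of SNAP and, if the SNAP group was not sutured, by the suture. As deposited, 1 of the 12 rises was higher in S-DTMS than in SNAP by at least 1 and 4 were lower, and 4 of the 12 falls were lower and none was higher, compared with 9.37% higher and 3.21% lower among all genes. On the scaled values 5 of the rises were lower and the other counts were the same, compared with 4.44% higher and 5.99% lower among all genes.

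**Figure D2:**
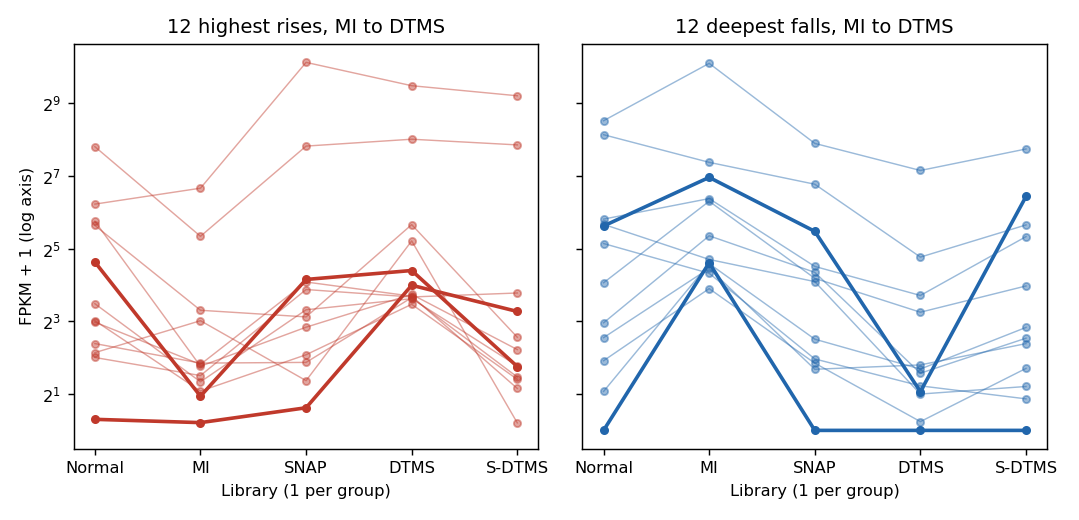
FPKM + 1 on a log axis in the 5 libraries for the 12 genes with the highest rise (left, red) and the 12 with the deepest fall (right, blue) from MI to DTMS; thick lines are the 2 identified genes on each side, and each point is 1 library. In 8 of the falls MI stands at least 1 log2 unit above Normal, and only ENSRNOG00000031706 among the rises is higher in S-DTMS than in SNAP by 1 or more.

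There were 705 genes with a mean FPKM of at least 100 over the 5 libraries. As deposited, 22 of them were lower and 8 higher in DTMS than in MI, and all 30 passed the limit on both scales. With median-of-ratios scaling, 22 were lower and 12 higher. The 22 falls and 8 rises below are those as deposited. The genes singled out here by length were chosen after their values were seen. The largest fall among them was that of a gene of 5825 nt, with an FPKM of 364 in Normal, 1089 in MI, 236 in SNAP, 141 in DTMS and 212 in S-DTMS. A gene of 4765 nt was at 918 in Normal, 1681 in MI, 531 in SNAP, 491 in DTMS and 579 in S-DTMS. A gene of 2063 nt stood at 1222 in Normal, 2085 in MI, 685 in SNAP, 702 in DTMS and 868 in S-DTMS. In these 3 genes MI was the highest library, Normal the next, and the 3 treated libraries lay below Normal.

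Another pattern was that of a gene of 6028 nt, with an FPKM of 45.8 in Normal, 2030 in MI, 714 in SNAP, 589 in DTMS and 33.1 in S-DTMS. The log2 difference of DTMS to MI was -1.78, and that of DTMS to Normal was 3.66. A gene of 1436 nt was at 150 in Normal, 1729 in MI, 2558 in SNAP, 442 in DTMS and 285 in S-DTMS. For this gene DTMS lay below both MI and SNAP, and SNAP was the highest library.

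Among the 22 abundant falls, MI lay above Normal in 20, and DTMS lay below Normal in 19. On the scaled values these counts were 20 and 18. Among all 705 abundant genes, MI lay above Normal in 44.0% as deposited and 57.3% on the scaled values. DTMS lay below Normal in 62.7% of them as deposited and 43.1% on the scaled values. Choosing genes lower in DTMS than in MI favours both counts. The mean over the 5 libraries takes in MI, so some of these genes entered the abundant class only through MI. This too favours MI above Normal. DTMS was nearer to Normal than MI was in 9 of the 22 as deposited but in 17 on the scaled values, compared with 39.4% and 40.99% of all abundant genes, so the majority depended on the scale. S-DTMS was higher than SNAP in 13 and lower in 9 as deposited, and higher in 8 and lower in 14 on the scaled values. For all abundant genes the share higher in S-DTMS was 50.6% as deposited and 34.6% on the scaled values.

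The most abundant of the 8 rises was a gene of 5923 nt, with an FPKM of 2240 in Normal, 1201 in MI, 2925 in SNAP, 3530 in DTMS and 3314 in S-DTMS. MI was the lowest library and the 3 treated libraries were all above Normal. A gene of 1702 nt was at 222 in Normal, 39.4 in MI, 224 in SNAP, 256 in DTMS and 229 in S-DTMS, so that only MI was low. A gene of 849 nt was at 2238 in Normal, 185 in MI, 203 in SNAP, 624 in DTMS and 84.7 in S-DTMS. Here DTMS lay above the other infarcted hearts but below Normal, with a log2 difference to Normal of -1.84. By contrast, a gene of 1378 nt was at 73.5 in Normal, 99.996 in MI, 1109 in SNAP, 711 in DTMS and 587 in S-DTMS, a rise away from Normal. MI lay below Normal in 6 of the 8 rises on either scale, which their choice favours. Among all 705 abundant genes this share was 56.0% as deposited and 42.7% on the scaled values. DTMS was nearer to Normal than MI was in 5 of the rises as deposited and 4 on the scaled values. For all abundant genes these shares were 39.4% and 40.99%.

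In all, 9.96% of the fragments were placed on other genes in DTMS than in MI. This is the mean of the summed gains and the summed losses in share over all genes. The same measure was 14.3% between MI and Normal and 23.1% between S-DTMS and SNAP. The 10 genes that moved most held 27.0% of the difference between DTMS and MI. The gene of 5923 nt gained most, from 119361 fragments in MI to 349860 in DTMS, and the gene of 6028 nt lost most, from 205410 to 59445. The gene with the most fragments in both libraries had 1178153 in MI and 1311533 in DTMS, a log2 difference of 0.16. A gene of 1489 nt, the fourth by fragments, had an FPKM of 2738 in Normal, 11287 in MI, 10788 in SNAP, 10877 in DTMS and 3018 in S-DTMS. Its difference between DTMS and MI was -0.05, and both were well above Normal and S-DTMS. Raised levels in MI were thus not lower in DTMS at every abundant gene.

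Many of the changed genes were short or had few fragments, the higher ones above all. The 201 higher genes had a median of 23 fragments in MI and DTMS together, against 164 for the lower genes and 668 for all genes compared. Fewer than 20 fragments stood behind 89 of the higher genes (44.3%) and 108 of the lower genes (24.6%), compared with 3.68% of all genes. Intervals of the fragments did not overlap for 108 of the 201 higher genes and 328 of the 439 lower genes, compared with 36.2% of all genes. The choice of genes by the size of their difference favours separate intervals. At the 69 higher genes that were at 0 in MI, and the 82 lower genes at 0 in DTMS, the size of the difference is set by the pseudocount.

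Genes with a low mean entered the comparison only through the library, MI or DTMS, in which they reached an FPKM of 1, so the shares of the lowest class are raised by that filter. By level, 9.65% of the 549 genes with a mean FPKM under 1 were higher and 15.8% lower. Between 5 and 20 these shares were 0.702% and 2.21% of 4985 genes, and at 100 or more they were 1.13% and 3.12% of 705 genes. By length, 11.5% of the 990 genes shorter than 500 nt were higher and 15.1% lower, against 0.464% and 1.14% of the 2369 genes of at least 4000 nt. With at least 100 fragments required, 1.48% of 271 such short genes were higher and 5.17% lower, against 0.608% and 2.19% of 11023 longer genes. The length is recovered from the values and can come out too short where few fragments were counted. The median difference was -0.14 for genes under 500 nt and 0.01 for those of at least 4000 nt.

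**Figure D3:**
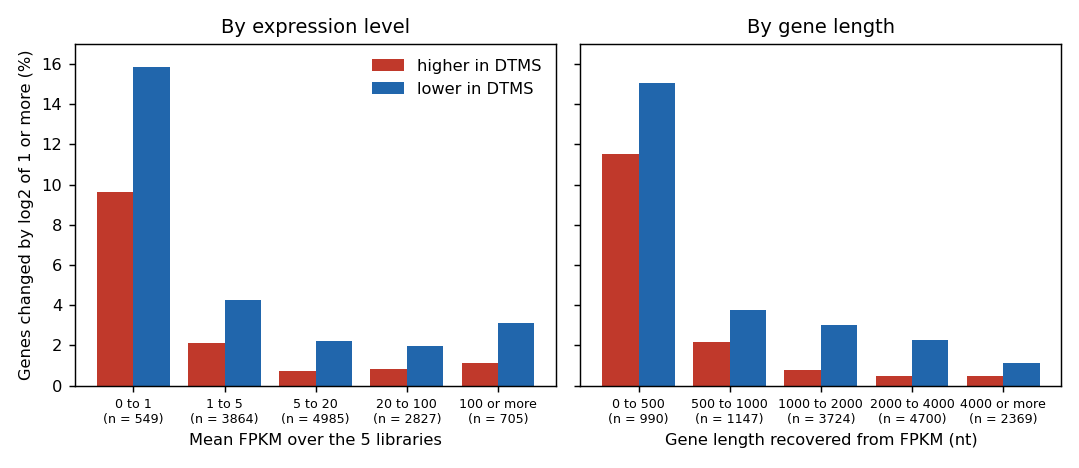
Bars give the percentage of genes higher (red) or lower (blue) in DTMS than in MI by at least 1 on the log2 scale, by mean FPKM over the 5 libraries (left) and by recovered gene length (right). The shares of the lowest level class are raised by the filter of FPKM 1 in MI or DTMS, both shares fall from the shortest to the longest class, and lower genes outnumber higher ones in every class.

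The threshold for entering the comparison was an FPKM of 1 in either library. The 162 genes with a higher value from 1 to below 1.1 had a median difference of -0.13, and the 251 genes from 0.9 to below 1 had one of -0.14. The latter cannot reach a difference of 1 on this scale.

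Whether a change went towards the uninjured heart was read from the Normal library. MI and DTMS take part both in the change and in the distance to Normal, so the place relative to Normal is not independent of the change. DTMS lay nearer to Normal than MI did at 111 of the 201 higher genes (55.2%) and 193 of the 439 lower genes (44.0%), compared with 43.7% of all genes. With median-of-ratios scaling the shares were 50.4% and 52.7%, compared with 46.8% of all genes. The majority among the lower genes thus changed side with the scale. Normal lay between MI and DTMS at 104 of the higher and 280 of the lower genes, compared with 24.6% of all genes. A wider gap between MI and DTMS leaves more room for Normal between them, so these counts say nothing particular about the changed genes. Normal lay at or beyond DTMS, on the far side from MI, at 40 higher and 86 lower genes. It lay at or beyond MI, so that DTMS moved away, at 57 higher and 73 lower genes. Among all 12930 genes these counts were 4263 and 5483, and the wider gap of the changed genes bears on them too.

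**Figure D4:**
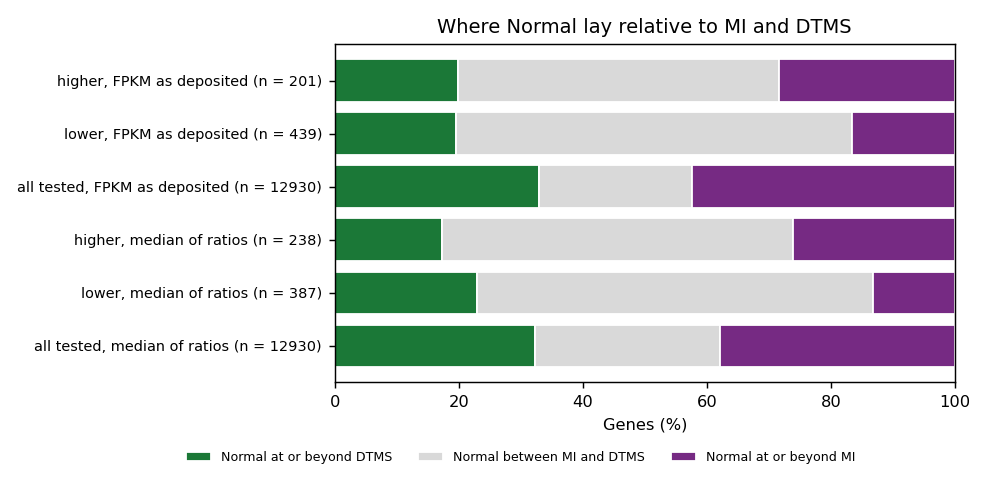
Each bar splits a set of genes by the order of the 3 libraries: Normal at or beyond DTMS (green), Normal between MI and DTMS (grey) or Normal at or beyond MI (purple), as percentages of the n genes given. Normal lies between MI and DTMS for most changed genes on both scales, 104 of 201 and 280 of 439 as deposited. For all genes the share is 24.6% as deposited and 29.8% on the scaled values. A wider gap between MI and DTMS leaves more room for Normal between them.

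A view that does not reuse the MI library takes genes from libraries outside the comparison, a choice made after seeing the data. SNAP was higher than Normal at 196 of the 12930 genes (1.52%) and lower at 844 (6.53%). Among the 196 higher genes the median difference between DTMS and MI was 0.06, with quartiles at -0.52 and 0.45, and 22 were higher and 25 lower in DTMS. Among the 844 lower genes it was -0.20, with quartiles at -0.58 and 0.23, and 34 were higher and 97 lower. For all genes the median was -0.06.

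S-DTMS was higher than Normal at 517 genes (3.998%) and lower at 697 (5.39%). The median difference between DTMS and MI was 0.06 in the former and -0.13 in the latter. On the scaled values the medians were 0.15 and -0.11 for the genes set by SNAP and 0.16 and -0.04 for those set by S-DTMS, against 0.03 for all genes. As deposited, the medians of all 4 sets lay within the quartiles of all genes. Those quartiles describe single genes, so they do not show whether the median of a set was shifted. In these 4 sets, 4.03% to 11.2% of the genes were higher and 7.16% to 12.8% lower in DTMS than in MI, shares above those of all genes. The difference of these shares was not tested, and neither was the part of low values in them.

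S-DTMS against SNAP also shares no library with DTMS against MI. The drug reached the heart through the suture in S-DTMS rats and by injection in SNAP rats, so the suture and the route cannot be told apart. The methods also name the SNAP group among those sutured, so whether the suture differed between these groups is not settled. S-DTMS was higher than SNAP at 1212 genes (9.37%) and lower at 415 (3.21%). Among the 201 genes that DTMS had at higher levels than MI, S-DTMS was above SNAP by the limit at 32 (15.9%) and below it at 29 (14.4%). Among the 439 lower genes it was above SNAP at 58 (13.2%) and below it at 36 (8.20%). On the scaled values it was above SNAP at 29 and below at 41 of the 238 higher genes, and above at 34 and below at 42 of the 387 lower genes, when 4.44% of all genes were above and 5.99% below. The median difference between S-DTMS and SNAP was 0.03 for the higher and 0.02 for the lower genes, against 0.30 for all genes, and 0.00 and -0.11 against 0.00 after scaling. The shares past the limit in S-DTMS against SNAP were thus above those of all genes in either direction, and neither set had a shared direction. The part of low values in these shares was not tested.

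**Figure D5:**
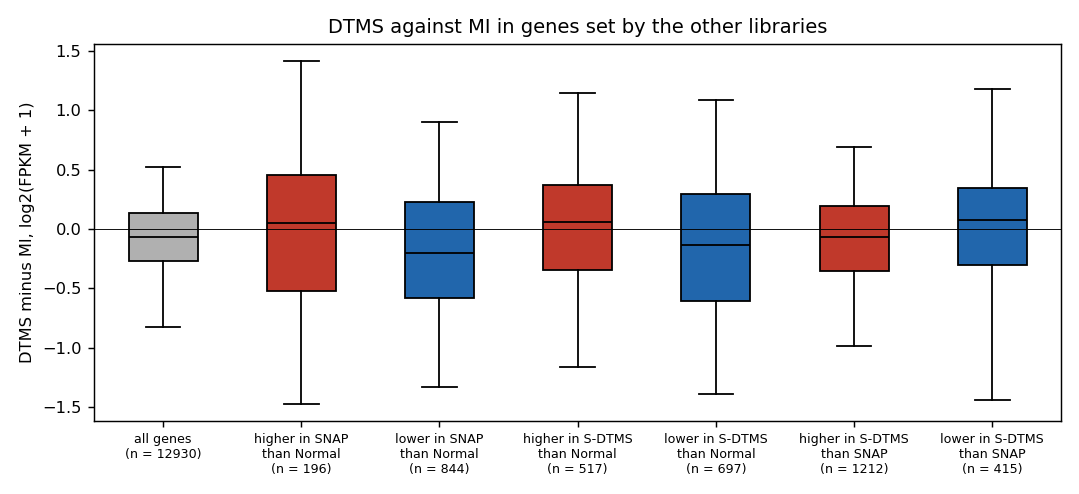
Boxes show the difference DTMS minus MI in log2(FPKM + 1) for all genes (grey) and for genes higher (red) or lower (blue) by at least 1 in pairs of the other 3 libraries; lines are medians, boxes quartiles and whiskers the 5th and 95th percentiles. The medians of all sets lie between -0.20 and 0.08, within the quartiles of all genes, while the boxes are wider than that of all genes. The quartiles describe single genes and do not show whether a set median was shifted.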

How the data were processed

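RNA of rat heart was sequenced by the authors on an Illumina NovaSeq instrument, and 1 library per group was deposited, as FPKM values relative to the length of each gene and the total of each library. The submitters' processing notes name HTSeq and mm9, a mouse build, although the identifiers are those of rat Ensembl genes, and the aligner and annotation are not given in the sources used here. Libraries were assigned to columns through their descriptions. The members, lists and limits were chosen with earlier results of these data known.

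Whole fragments were recovered as follows. Commonest ratios of low values gave relative depth, whole gene lengths gave the totals (98.3% of 1500 genes within 0.02 of a whole number), and the shortest whole length making all 5 values whole gave the fragments of all 20304 genes above 0. A divisor shared by all fragments of a gene makes them, and its length, too small. Differences were taken on log2(FPKM + 1) with no test, since each group had 1 library. The recovery and the calls were tested on simulated data. Intervals are exact at 95% and cover counting error only. Python 3.11.15, NumPy 2.4.6, pandas 2.3.3, SciPy 1.17.1 and Matplotlib 3.10.9 were used.

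Named genes were the 12 highest rises and 12 deepest falls with an FPKM of at least 10 in MI or DTMS and a log2 difference of at least 1 on both scales. The rule also asked for a gene symbol, which could not be applied, and 2 identifiers were printed per direction. The 37 gene lists and the promoter motifs written down for this comparison were not analysed here, because 0 identifiers could be paired with a symbol.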

Additional observations from a re-analysis of the deposited data

Results flagged for a closer look

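DTMS against MI and S-DTMS against SNAP ran in opposite directions at 2 of the 4 identified genes, and with 1 library per group the contrast between them was not tested. ENSRNOG00000022490 was lower in DTMS than in MI by a log2 difference of -5.89. For this gene S-DTMS differed from SNAP by 0.96, which is below the limit of 1. ENSRNOG00000002475 was higher in DTMS than in MI by 3.46, and S-DTMS differed from SNAP by -2.39.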

How the results depend on the processing

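Fewer genes were higher than lower in DTMS under each of 8 alternatives and under the restriction to genes with separate fragment intervals, which was added after seeing the data. A pseudocount of 0.1 gave 326 higher and 790 lower genes. With an FPKM of at least 5 the counts were 78 and 245, and at a log2 difference of 2 they were 24 and 39. With at least 20 fragments 112 genes were higher, and with separate intervals 108. Median-of-ratios scaling, TPM and changes relative to the median stayed within 1.5 times for both counts. Removing the filter cannot add a gene on this scale and tests nothing. The share of higher genes at which DTMS was nearer to Normal than MI became 45.2% relative to the median change, 71.8% with an FPKM of at least 5, 63.4% with at least 20 fragments, 41.7% at a log2 difference of 2 and 65.7% with separate intervals. That of lower genes became 52.7% after median-of-ratios scaling, 55.4% relative to the median change, 48.7% at a log2 difference of 2 and 37.3% with a pseudocount of 0.1. For these shares, the 20-fragment minimum and the log2 difference of 2 were also added after seeing the data. The cause was not tested. All 8 values of the 4 identified genes under 2 alternatives kept their direction and stayed past the limit, which tests nothing. Passing the limit after median-of-ratios scaling was a condition of their choice, and a smaller pseudocount can only widen a difference. No paired analysis was possible because MI and DTMS hold 1 library each. Gene lists were not run, since identifiers had no names.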
